A study of Rattus norvegicus with 16 samples.

Results

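The 40 genes described here encode parts of the motile cilium and the factors that switch on its genes. They were chosen by name and known role, with earlier results of these data known. All 40 were found by symbol among the 33294 gene rows of the count table, and 30 of them were among the 17856 genes that passed a filter on low counts (at least 0.603 CPM in at least 2 libraries, where CPM is a gene's read count relative to its library's total). Spag6l and Efcab1, cilium genes that passed the threshold for fentanyl against saline, were left out of the set by its definition. Both were higher in fentanyl offspring, with log2 fold changes of 3.75 and 1.75, so results for the set do not cover them. Poly(A) RNA was sequenced from tissue labelled central amygdala of adult rat offspring: 6 males exposed to fentanyl around birth against 6 given saline, and 2 fentanyl-exposed females against 2 given saline. All groups were sampled 1 day after the last session of a procedure whose abbreviation (IVSA) the labels do not spell out. The labels name no litters, so p-values measure only the spread among the animals sampled, some of which could be littermates. Whole tissue was used, in which fewer cells of a type and less RNA per cell cannot be told apart.

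A motile cilium beats because dynein motors, fixed in outer and inner rows on its doublet microtubules, slide the doublets past each other, while radial spokes and a central pair of microtubules time the strokes. In the brain, motile cilia are carried mainly by ependymal cells, which line the ventricles and move cerebrospinal fluid. Foxj1 and the RFX factors switch on the genes of the axoneme, the core of the cilium, and Gmnc and Mcidas commit cells to making many cilia.

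Total counts per library ranged from 12879701 to 22426428. Of the 40 genes, 23 to 32 had at least 10 counts in a given library. Among the 10 genes below the filter, Mcidas, which commits cells to making many cilia, never had more than 1 count. Ccno, a cyclin-like protein of centriole amplification, also never had more than 1. Tmem212, a marker of ependymal cells in mouse, had no count in any of the 16 libraries. Spag16, of the central apparatus, never had more than 3 counts. Spag17 and Spef2 of the same structure, the inner arm heavy chain Dnah7, the outer arm intermediate chain Dnai2, the tether protein Cfap44 and the adenylate kinase Ak7 reached at most 8, 17, 12, 10, 9 and 7 counts. A count of 0 to 3 in every library lies at the limit of this depth and does not show that a gene was silent. Of 9 ependymal markers outside the cilium 8 passed the filter, whereas Fam216b had at most 1 count. Vim and Nnat, which other brain cells also express, were among the 8. So were Rarres2 at 53 to 156 counts, Tm4sf1 at 49 to 128 counts and Mia at 28 to 59 counts. Of 19 choroid plexus genes 7 passed the filter, and the list summed to 98.25 to 422 CPM over the libraries, mostly from Enpp2, which oligodendrocytes also express. Slc4a5 had 17 to 114 counts and Kl 2 to 105, whereas Ttr, Folr1, Clic6, F5 and Cldn2 had no more than 3 counts in any library. The genes are called motile cilia genes here and not ependymal genes, since counts from whole tissue do not show which cells held them. All 8 markers of central amygdala neurons passed the filter, with Prkcd at 16.8 CPM and Sst at 101 CPM on average, and so did all 8 markers of striatal medium spiny neurons, such as Ppp1r1b at 1463 CPM.

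Levels are given in CPM with library totals scaled by TMM factors, and they are not corrected for gene length, so they are compared between libraries and not between genes. Among the regulators, Rfx3 averaged 68.7 CPM over the 16 libraries, Foxj1 3.38 CPM, Rfx2 2.88 CPM and Gmnc 0.503 CPM. Among the axoneme genes, Rsph4a, of the radial spoke head, averaged 0.366 CPM and Ccdc39, which with Ccdc40 forms the ruler that spaces dynein arms and spokes, averaged 53.2 CPM. The coefficient of variation over the 16 libraries was 15.1% for Ccdc39 and for Tekt1, a tektin inside the doublet wall, and 19.0% for Foxj1. It reached 86.2% for Drc1, of the nexin-dynein regulatory complex that links neighbouring doublets. Counting error alone would give 3.34% for Ccdc39, 13.3% for Foxj1, 13.1% for Drc1 and 38.9% for Rsph4a. Without saline male replicate 3, the coefficient fell to 23.3% for Drc1, and that library is described below.

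**Figure D1:**
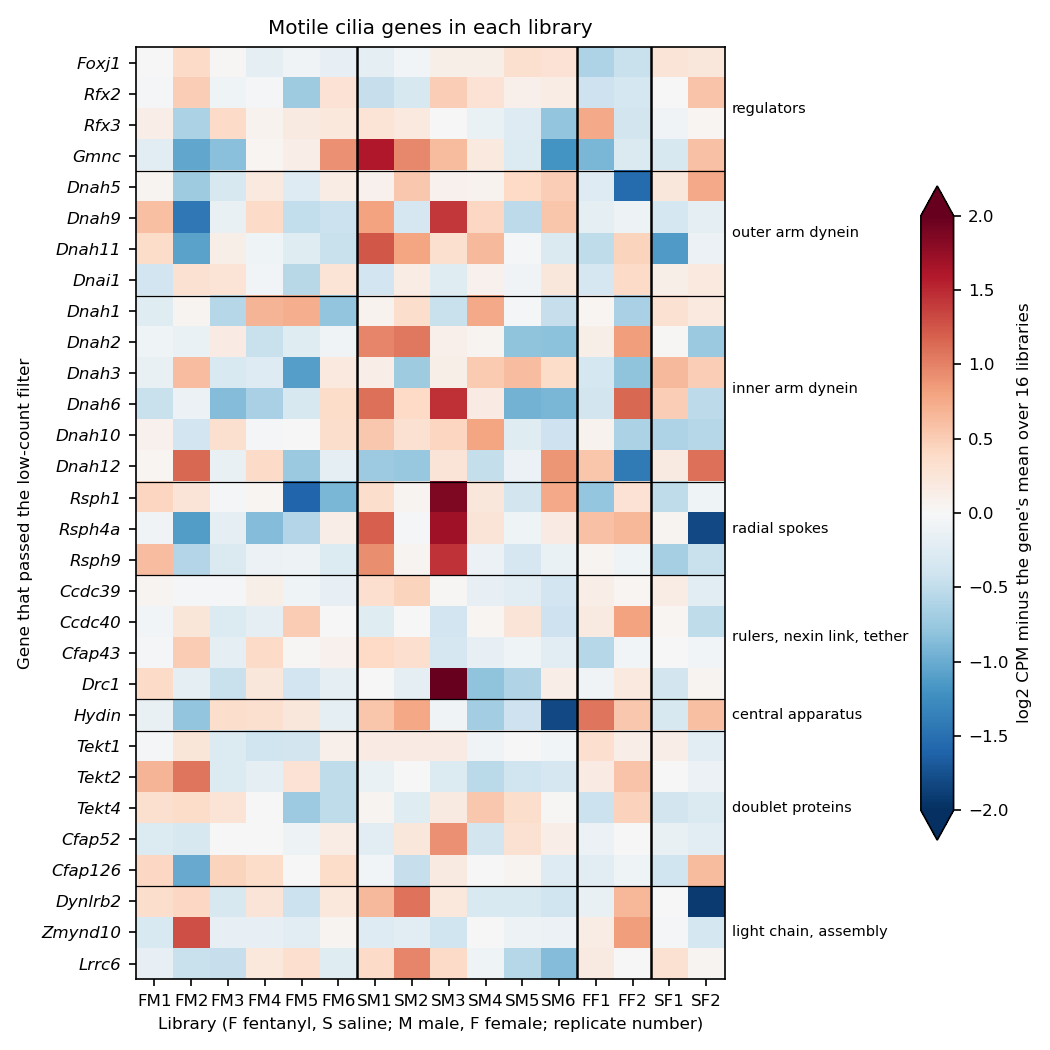
Level of each of the 30 motile cilia genes that passed the filter, as log2 CPM minus the gene's mean over 16 libraries (colour, from -2 to 2), with libraries in columns (fentanyl males FM, saline males SM, fentanyl females FF, saline females SF) and genes in rows by role. Saline male replicate 3 holds the highest values of Drc1, Rsph1, Rsph4a, Rsph9 and Dnah9, and no column of fentanyl libraries is uniformly high or low.

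Fentanyl and saline offspring were first compared over both sexes, with sex as a term. None of the 30 genes passed an adjusted p of 0.05 by edgeR's quasi-likelihood test, where 14 of all 17856 genes (0.0784%) did. DESeq2 called none of them either, and 4 (13.3%) had an unadjusted p under 0.05 by edgeR, against 7.27% of all genes. The fold changes leaned to lower values in fentanyl offspring: 21 of the 30 were below 0, with a median log2 fold change of -0.12, against 52.3% below 0 and a median of -0.01 over all genes tested. In no gene of the set did the fentanyl and saline libraries fail to overlap, and in all genes tested this was so for 18 (0.101%). Without saline male replicate 3 the median was -0.03, with 21 of the 29 genes that then passed the filter below 0. With limma voom and sample quality weights 4 genes of the set were called, Foxj1 and Dnah3 lower and Rfx3 and Hydin higher in fentanyl offspring, when that method called 5.63% of all genes. Among the marker lists, all 8 striatal medium spiny neuron markers had fold changes above 0, none past the threshold, and they summed to 3783 to 7837 CPM in fentanyl offspring and to 1640 to 6159 CPM in saline offspring. All 8 astrocyte markers had fold changes below 0, none past the threshold, with sums of 2378 to 3349 CPM in fentanyl offspring and 2373 to 3985 CPM in saline offspring. Their part in the cilia gene values was not tested.

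Of the regulators, Foxj1, the transcription factor that drives motile ciliogenesis, ranged from 2.12 to 4.38 CPM in fentanyl offspring with a median of 3.05 CPM, and from 2.88 to 4.19 CPM in saline offspring with a median of 3.75 CPM. Its 2 lowest libraries were the 2 fentanyl females and its highest was fentanyl male replicate 2. The log2 fold change was -0.28 ± 0.14 (SE; adjusted p = 0.725 by edgeR). Rfx3, which binds X-box motifs of cilium genes, ranged from 43.0 to 113 CPM in fentanyl offspring (median 74.5 CPM) and from 38.3 to 80.8 CPM in saline offspring (median 65.1 CPM). The groups overlapped over most of their range, with a log2 fold change of 0.21 ± 0.17. Its relative Rfx2 had a log2 fold change of -0.22 ± 0.20, and Gmnc, at 2 to 22 counts per library, one of -0.75 ± 0.44.

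The outer arm motors gave the smallest p-value of the set. Dnah5, an outer arm heavy chain, ranged from 0.965 to 3.46 CPM in fentanyl offspring (median 2.51 CPM) and from 3.18 to 5.21 CPM in saline offspring (median 3.79 CPM). Of the 8 fentanyl libraries 6 lay below the lowest saline library, and fentanyl male replicates 4 and 6 lay just above it. The log2 fold change was -0.64 ± 0.21, with an unadjusted p of 0.0073 and an adjusted p of 0.480 by edgeR. Dnah9, an outer arm heavy chain found toward the tip of human airway cilia, ranged from 3.66 to 15.4 CPM in fentanyl offspring (median 8.92 CPM) and from 6.91 to 27.0 CPM in saline offspring (median 11.1 CPM). Its highest value belongs to saline male replicate 3. The log2 fold change of Dnah9 was -0.47 ± 0.30, and -0.25 ± 0.27 without that library. Dnah11, the third outer arm heavy chain, had a log2 fold change of -0.40 ± 0.30 and the intermediate chain Dnai1 one of 0.02 ± 0.17.

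All 6 inner arm heavy chains that passed the filter had fold changes below 0, none past the threshold. Dnah3 ranged from 0.549 to 2.08 CPM in fentanyl offspring (median 1.06 CPM) and from 0.753 to 2.12 CPM in saline offspring (median 1.80 CPM), with overlap across nearly the whole range. Its log2 fold change was -0.55 ± 0.26 (unadjusted p 0.0487, adjusted p = 0.687 by edgeR). Dnah2, a heavy chain of the inner arm that carries a pair of heads, ranged from 9.72 to 23.9 CPM in fentanyl offspring (median 12.6 CPM) and from 7.47 to 27.6 CPM in saline offspring (median 13.6 CPM), a log2 fold change of -0.10 ± 0.29. The saline libraries held both its highest and its lowest values. Dnah1, Dnah6, Dnah10 and Dnah12 had log2 fold changes from -0.56 for Dnah6 to -0.04 for Dnah12.

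The 3 spoke head genes had fold changes below 0. Rsph1 ranged from 0.235 to 1.30 CPM in fentanyl offspring (median 0.944 CPM) and from 0.624 to 3.77 CPM in saline offspring (median 1.05 CPM). Rsph9 ranged from 2.30 to 5.49 CPM in fentanyl offspring (median 3.27 CPM) and from 2.18 to 9.81 CPM in saline offspring (median 3.23 CPM). The medians were close, and the top saline value was saline male replicate 3 for both genes. The log2 fold change was -0.68 ± 0.39 for Rsph1 and -0.30 ± 0.29 for Rsph9, and without that library it was -0.28 ± 0.32 and -0.03 ± 0.23. Rsph4a, at 0 to 29 counts, had a log2 fold change of -0.69 ± 0.55 and no longer passed the filter without that library.

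Among rulers, links and the tether, Ccdc39 ranged from 47.1 to 57.9 CPM in fentanyl offspring (median 53.1 CPM) and from 40.2 to 71.8 CPM in saline offspring (median 50.2 CPM), a log2 fold change of -0.01 ± 0.11. The fentanyl libraries all lay inside the saline range. Its partner Ccdc40 ranged from 1.28 to 2.84 CPM in fentanyl offspring (median 1.67 CPM) and from 1.07 to 1.90 CPM in saline offspring (median 1.43 CPM), a log2 fold change of 0.33 ± 0.19. Drc1 had a log2 fold change of -0.46 ± 0.40, which was 0.20 ± 0.19 without saline male replicate 3, a change of sign that rests on that library. Cfap43, of the tether, differed by 0.04 ± 0.17. Hydin, the large protein of the central apparatus, ranged from 8.33 to 30.5 CPM in fentanyl offspring (median 17.6 CPM) and from 4.08 to 25.0 CPM in saline offspring (median 12.8 CPM), a log2 fold change of 0.20 ± 0.29 with broad overlap.

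Doublet and assembly genes included those with the largest positive values. Tekt2, a tektin, ranged from 0.447 to 1.58 CPM in fentanyl offspring (median 0.821 CPM) and from 0.437 to 0.695 CPM in saline offspring (median 0.581 CPM). The lowest values of both groups were alike and the highest belonged to fentanyl libraries, at 7 to 22 counts a library over all 16. Its log2 fold change was 0.59 ± 0.25 (unadjusted p 0.0316, adjusted p = 0.651 by edgeR). Zmynd10, which helps to assemble dynein arms in the cytoplasm before they reach the cilium, ranged from 11.7 to 35.2 CPM in fentanyl offspring (median 13.9 CPM) and from 10.9 to 14.4 CPM in saline offspring (median 12.7 CPM). Its log2 fold change of 0.47 ± 0.21 (unadjusted p 0.0363, adjusted p = 0.661 by edgeR) had its highest libraries in fentanyl male replicate 2 at 35.2 CPM and fentanyl female replicate 2 at 25.8 CPM, and the other fentanyl libraries lay close to the saline ones. Without any 1 library it stayed between 0.23 and 0.54. Cfap126, a protein inside the doublet, ranged from 2.51 to 7.09 CPM in fentanyl offspring (median 5.94 CPM) and from 3.71 to 8.09 CPM in saline offspring (median 5.03 CPM), a log2 fold change of 0.11 ± 0.21. Tekt1, Tekt4 and Cfap52 had log2 fold changes of -0.06 ± 0.13, -0.02 ± 0.22 and -0.21 ± 0.18. The dynein light chain Dynlrb2 and the assembly factor Lrrc6 (Dnaaf11 in RefSeq) had log2 fold changes of 0.14 ± 0.36 and -0.23 ± 0.24.

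**Figure D2:**
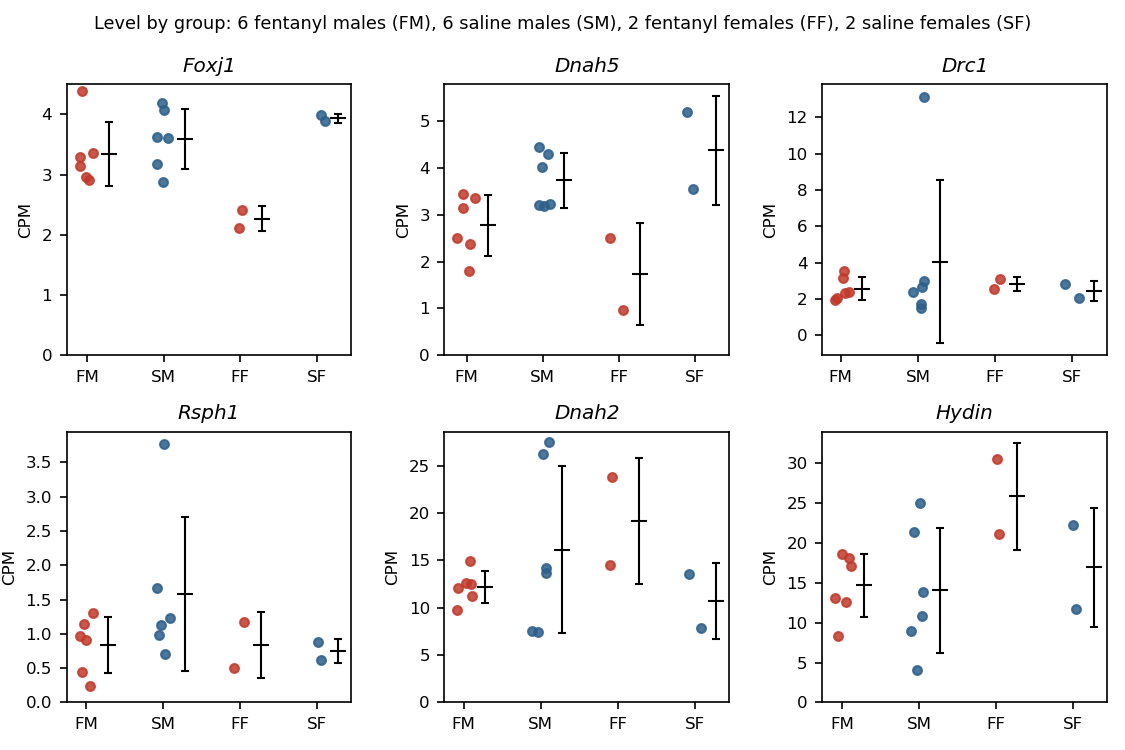
CPM (linear axes) of 6 motile cilia genes in 6 fentanyl males (FM), 6 saline males (SM), 2 fentanyl females (FF) and 2 saline females (SF); points are libraries, and the bars beside them are mean ± SD. One saline male stands at 13.1 CPM for Drc1 and 3.77 CPM for Rsph1, both fentanyl females lie below both saline females for Foxj1, and saline males 1 and 2 are the highest saline libraries for Dnah2.

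In males alone, 6 fentanyl against 6 saline, no gene of the set was called by edgeR, DESeq2 or limma voom, where edgeR called 7 of all genes (0.0392%). The median log2 fold change of the set was -0.17 and 21 of 30 were below 0, against a median of -0.005 over all genes. Those with an unadjusted p under 0.05, 10% of the set against 4.13% of all genes, were Rsph4a at -1.46 ± 0.54, Dnah11 at -0.72 ± 0.31 and Rsph1 at -0.93 ± 0.43, all lower in fentanyl males. Saline male replicate 3 was the highest library for both spoke genes. Without it Rsph4a no longer passed the filter, Rsph1 stood at -0.44 ± 0.37, Dnah11 at -0.76 ± 0.33, and the median of the set at -0.12. In the newer rat assembly the span of Dnah11 overlaps that of Cdca7l on the other strand, and the span of Rsph1 overlaps that of Slc37a1. Exons were not compared and the strand setting of the counting is not given, so whether this touched the counts is not known.

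In females the comparison rested on 2 libraries against 2, with the spread taken from all 16. The fentanyl females carry library numbers 1 and 2 and the saline females 10 and 11. Exposure and library number therefore cannot be told apart in females. None of the genes of the set was called, nor was any of all genes tested (0%), and DESeq2 and limma voom called none of the set. The median log2 fold change was 0.19, with 19 of 30 above 0, against -0.01 over all genes. Foxj1 had 2.12 and 2.41 CPM in the fentanyl females, against 3.99 and 3.89 CPM in the saline females. Both fentanyl females lay below every other library of the series for this gene, a log2 fold change of -0.80 ± 0.25 (unadjusted p 0.00553, adjusted p = 0.333 by edgeR). Dnah5 had 2.51 and 0.965 CPM in the fentanyl females, against 3.56 and 5.21 CPM in the saline females, a log2 fold change of -1.34 ± 0.39. Dnah3 had 1.00 and 0.697 CPM in the fentanyl females, against 2.12 and 1.88 CPM in the saline females, a log2 fold change of -1.23 ± 0.50. The 2 groups overlapped in neither dynein gene, nor in Ccdc40, which had 1.78 and 2.84 CPM in the fentanyl females, against 1.62 and 1.07 CPM in the saline females, a log2 fold change of 0.78 ± 0.36. With 2 libraries against 2 such a separation was common: it held for 14 of the 30 genes (46.7%) and for 48.8% of all genes tested. Foxj1, Dnah5, Dnah3 and Ccdc40 were the genes of the set with an unadjusted p under 0.05 (13.3%), a share close to the 14.3% of all genes tested. Marker lists differed in level in the same samples, none past the threshold: all 8 myelin markers had fold changes below 0, with summed levels of 18850 and 8045 CPM in the fentanyl females, against 25390 and 25010 CPM in the saline females. All 8 striatal medium spiny neuron markers were above 0, summing to 5791 and 7837 CPM in the fentanyl females, against 3602 and 3999 CPM in the saline females. All 8 astrocyte markers were below 0, summing to 2650 and 2378 CPM in the fentanyl females, against 3263 and 3803 CPM in the saline females, and 4 of them had an unadjusted p under 0.05, against 1 of the myelin markers. The choroid plexus list summed to 268 and 98.25 CPM in the fentanyl females, against 355 and 407 CPM in the saline females. Their part in the differences of the cilia genes was not tested.

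**Figure D3:**
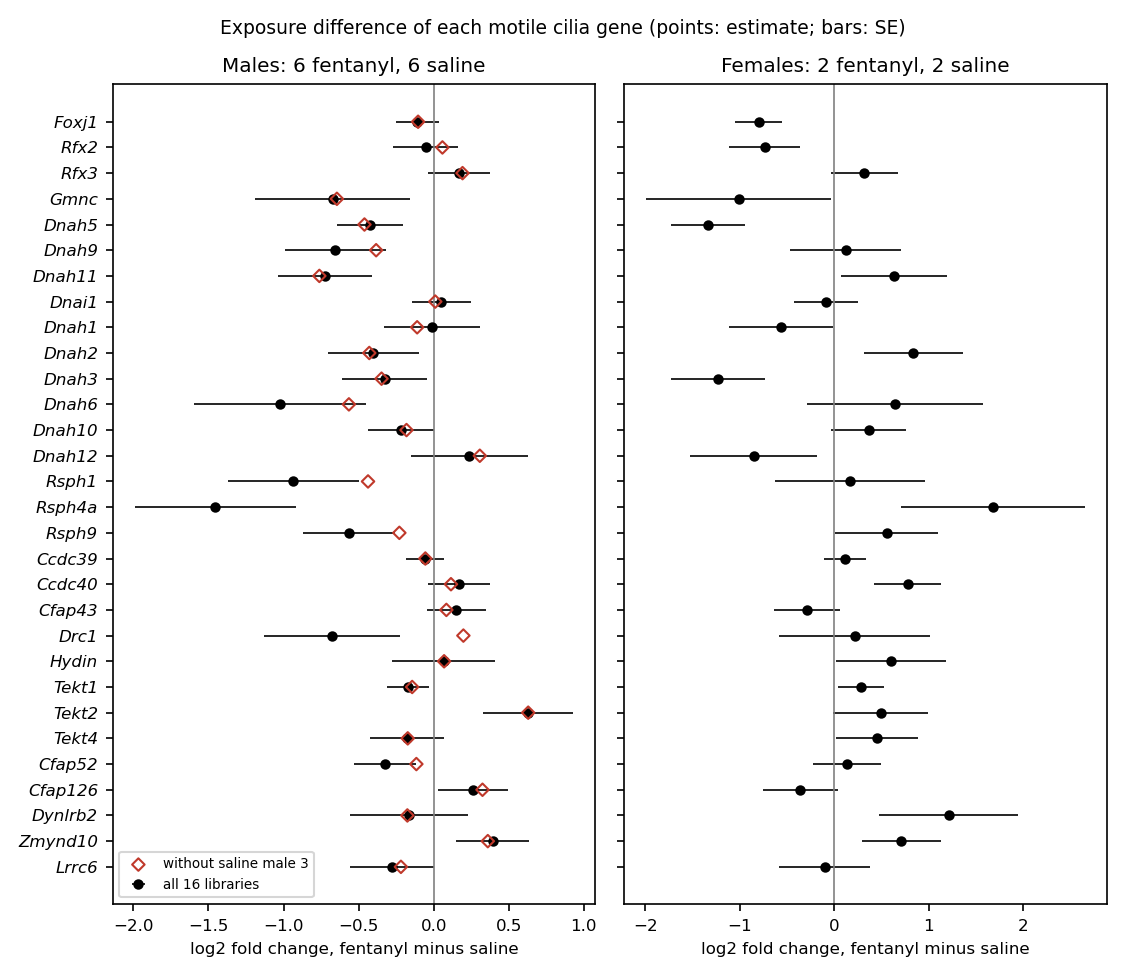
Log2 fold change, fentanyl minus saline, of the 30 motile cilia genes that passed the filter, in males (left) and in females (right); black points are estimates from all 16 libraries with SE bars, and open red diamonds are the male estimates without saline male replicate 3. None passed the threshold; the diamonds of Drc1, Rsph1, Rsph9 and Dnah6 lie to the right of their points, and Rsph4a has no diamond because it fell below the filter.

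The difference between the exposure effect in females and that in males was tested directly, and no gene of the set was called by edgeR, DESeq2 or limma voom. None of all genes tested was called by edgeR (0%). The 2 genes with an unadjusted p under 0.05 were Foxj1, with -0.69 ± 0.29, lower in fentanyl females relative to the male difference, and Rsph4a, with 3.14 ± 1.11, at 0 to 29 counts. Rsph4a did not pass the filter without saline male replicate 3. The opposite signs of the medians in females and in males are therefore not shown to be a difference between the sexes. Females against males, with exposure as a term, gave no call in the set by any of these tools, where edgeR called 10 of all genes (0.056%). Dnah10, an inner arm heavy chain, was the single gene of the set with an unadjusted p under 0.05, with a log2 fold change of -0.62 ± 0.24, lower in females (adjusted p = 0.9999 by edgeR).

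Saline male replicate 3 stood apart for a part of the set. It was the highest of all 16 libraries for 7 of the 30 genes (23.3%), against 8.32% of all genes tested. Rsph4a, 1 of the 7, passed the filter only with this library, so its place in that count was not independent of it. Fentanyl male replicate 2 was highest for 16.7% of the set and 18.6% of all genes. Drc1 had 313 counts in saline male replicate 3, or 13.1 CPM, against 1.497 to 2.99 CPM in the other saline males and 1.95 to 3.57 CPM in fentanyl males. Rsph1 had 90 counts (3.77 CPM), Rsph9 234 counts (9.81 CPM), Rsph4a 29 counts (1.22 CPM), Dnah9 645 counts (27.0 CPM), Dnah6 26 counts (1.09 CPM) and Cfap52 109 counts (4.57 CPM). These are 2.08 to 5.53 times the median of the other 15 libraries. Spag17 and Spef2, below the filter, were also highest there with 8 and 17 counts. Other genes of the set were not raised in it: Foxj1 at 3.60 CPM, Ccdc39 at 53.4 CPM, Hydin at 13.9 CPM and Zmynd10 at 10.9 CPM lay within or below the range of the other libraries. Choroid plexus markers Ttr and Folr1 were at no more than 3 counts there as elsewhere, and the summed level of the 9 ependymal markers outside the cilium, 659 CPM, lay within the range of the other saline libraries, 378 to 705 CPM. That sum was carried by Nnat, highest of all 16 libraries there at 541 CPM, and by Pcp4l1, lowest of all there at 51.1 CPM, so it describes the other markers little. What did stand apart was the list of 6 markers of cortical and basolateral glutamatergic neurons, which summed to 84.8 CPM in that library and to 2.23 to 5.93 CPM in all the others. The part of such tissue in the raised cilia genes was not tested.

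The 6 saline males carry library numbers 1, 2 and 9 to 12, and the labels do not say what the numbers mark. Libraries numbered 9 to 12 were therefore compared with 1 and 2. Here 3201 of all genes (17.9%) passed the threshold, and 3 of the 30 motile cilia genes did, all lower in libraries 9 to 12, a share of the set no larger than that background. Dnah2 had 14.2, 13.7, 7.56 and 7.47 CPM in libraries 9 to 12, against 26.3 and 27.6 CPM in libraries 1 and 2. The 2 sets did not overlap, as in 12 of the 30 genes (40%) and 44.8% of all genes tested, and all fentanyl libraries, at 9.72 to 23.9 CPM, lay below libraries 1 and 2. The log2 fold change was -1.32 ± 0.28 (adjusted p = 0.0065 by edgeR). Ccdc39 had 53.4, 47.0, 45.6 and 40.2 CPM in libraries 9 to 12, against 66.2 and 71.8 CPM in libraries 1 and 2, a log2 fold change of -0.57 ± 0.12 (adjusted p = 0.00758 by edgeR). All fentanyl libraries of this gene, at 47.1 to 57.9 CPM, lay between those sets or among the lower one. The span of Ccdc39 overlaps that of Ttc14 on the other strand in the newer rat assembly. Exons were not compared and the strand setting is not given, so whether this touched the counts is not known. Hydin had 13.9, 8.98, 10.9 and 4.08 CPM in libraries 9 to 12, against 21.4 and 25.0 CPM in libraries 1 and 2, a log2 fold change of -1.29 ± 0.37 (adjusted p = 0.0276 by edgeR). Its fentanyl libraries spanned 8.33 to 30.5 CPM and so overlapped both sets. The set as a whole did not shift in 1 direction, with 14 of 30 above 0 and a median of -0.09, against 0.01 over all genes, and 30.0% had an unadjusted p under 0.05 against 31.6% of all genes.

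These calls, like those over all genes, depended on single libraries. Leaving out saline male replicate 1 or 2 leaves that arm with 1 library, which is then assumed to vary like the other groups. Without replicate 2 none of the 3 was called, with log2 fold changes of -1.29 ± 0.36 for Dnah2, -0.51 ± 0.16 for Ccdc39 and -1.17 ± 0.48 for Hydin, in a fit that called 1.09% of all genes. Without replicate 1 Dnah2 and Ccdc39 were called and Hydin was not, where 6.92% of all genes were called, and Hydin was also not called without replicate 4 or 6. Without saline male replicate 3 (22.8% of all genes called) there were 5, with Gmnc (-1.93 ± 0.63) and Lrrc6 (-1.24 ± 0.31) added. The split also entered the exposure comparison. With libraries 9 to 12 left out, so that 6 fentanyl males stood against saline males 1 and 2, Dnah2 was called lower in fentanyl males, with a log2 fold change of -1.15 ± 0.21 (adjusted p = 0.0166 by edgeR), in a fit that called 5.47% of all genes. In the same fit the exposure effect on Dnah2 was higher in females than in males by 1.98 ± 0.35 (adjusted p = 0.00403 by edgeR), where 16.4% of all genes were called. Against libraries 9 to 12 alone no gene of the set was called in males, where 0.4% of all genes were called. Over both sexes, with saline males 1 and 2 left out, none of the set was called either, in a fit that called 6.9% of all genes. Marker lists moved with the library numbers: 7 of 8 striatal medium spiny neuron markers were called lower in libraries 9 to 12, with sums of 1640 to 2855 CPM in libraries 9 to 12, against 4198 and 6159 CPM in libraries 1 and 2. Of 8 myelin markers, 7 were called higher, with sums of 11260 to 32910 CPM in libraries 9 to 12, against 7205 and 9750 CPM in libraries 1 and 2. Of 8 astrocyte markers 4 were called higher. Their part in the cilia gene differences was not tested, and number set, tissue make-up and litter cannot be told apart.

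**Figure D4:**
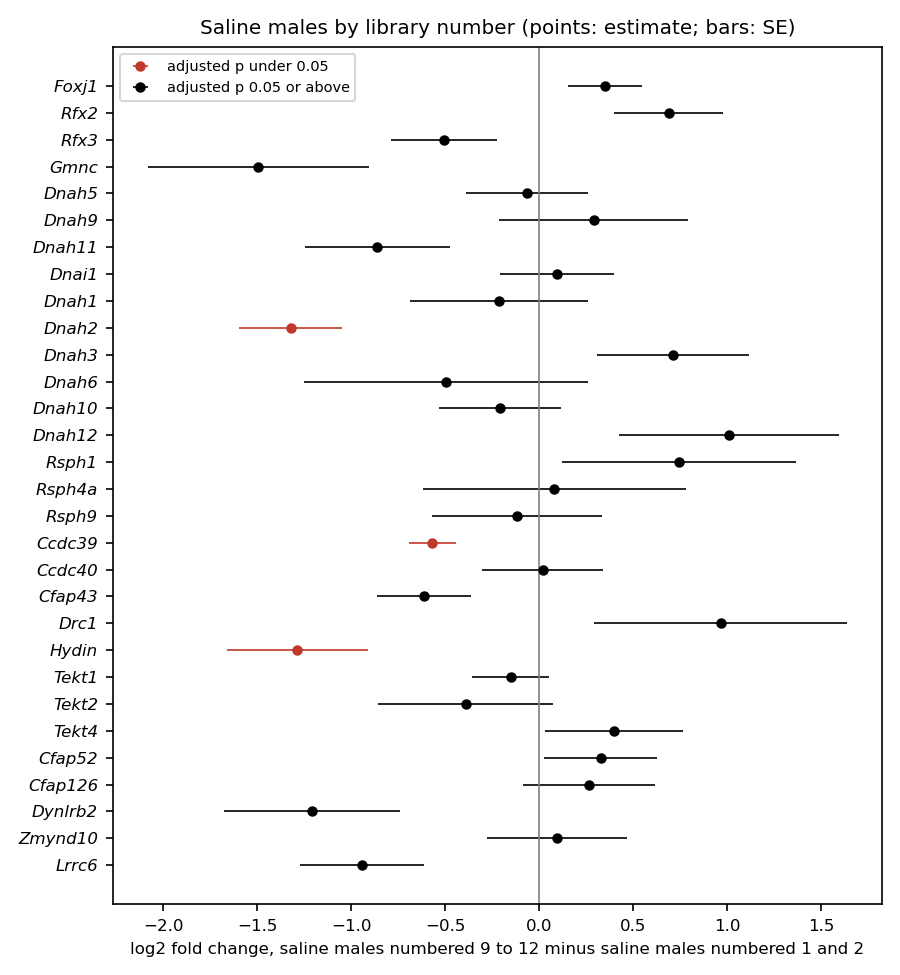
Log2 fold change of the 30 motile cilia genes in saline males, libraries numbered 9 to 12 minus libraries numbered 1 and 2; points are estimates, bars are SE, and red marks an adjusted p under 0.05. Dnah2, Ccdc39 and Hydin are the red points, all below 0, while Dnah12, Drc1 and Rsph1 are among those above 0.

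The stretches just upstream of Dnah2, Ccdc39 and Hydin, the genes called between the saline number sets, and of Drc1, the gene with the highest coefficient of variation of those tested, are shown because RFX factors, 2 of which belong to the set, read a short motif there, the X-box. Capitals mark its core, GTTGCC or the same core on the other strand, GGCAAC. Each stretch covers positions -150 to -1 counted from the start of the gene, 5′ to 3′ on the gene's strand, taken from RefSeq's promoters on GRCr8, whereas the authors' build was rn7.
Dnah2 (chr10:54766027-54766176, minus strand): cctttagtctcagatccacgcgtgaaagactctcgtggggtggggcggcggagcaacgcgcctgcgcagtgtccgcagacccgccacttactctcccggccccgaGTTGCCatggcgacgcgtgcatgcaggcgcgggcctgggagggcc
Hydin (chr19:55146316-55146465, plus strand): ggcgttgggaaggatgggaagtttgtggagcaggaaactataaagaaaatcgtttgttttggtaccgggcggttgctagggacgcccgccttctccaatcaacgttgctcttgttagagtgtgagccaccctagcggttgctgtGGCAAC
Ccdc39 (chr2:118631585-118631734, minus strand): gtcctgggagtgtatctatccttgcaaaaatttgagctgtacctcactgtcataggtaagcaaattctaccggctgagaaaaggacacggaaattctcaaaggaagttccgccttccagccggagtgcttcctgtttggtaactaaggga
Drc1 (chr6:31779257-31779406, minus strand): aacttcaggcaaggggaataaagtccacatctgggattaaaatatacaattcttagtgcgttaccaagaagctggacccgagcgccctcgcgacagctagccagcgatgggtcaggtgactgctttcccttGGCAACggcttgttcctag
In Dnah2 the core begins at position -45, in Hydin at -6 and in Drc1 at -19. Ccdc39 does not hold these letters in the stretch. Promoter windows of 300 bases, 50 of them after the start, were found for 33 of the 40 genes, and 15 of the 33 (45.5%) held the core on either strand in at least 1 window, against 13.1% of 27457 genes with a window. They include Rfx2, Rfx3, Mcidas, Ccno, Tekt1, Tekt2, Tekt4, Dnah10 and Dnah11. The whole motif, searched as GTTNCC and GGNAAC separated by 1 to 3 bases, was in none of the 33 and in 0.885% of all. The forkhead core TGTTTAC, searched on both strands because Foxj1 is a forkhead protein, was in 2 of the 33 (6.06%), Cfap43 and Spef2, and in 4.13% of all. A match describes letters and not binding. The table has no entry for Foxj1, Dnah3, Rsph1, Rsph4a, Spag16, Cfap52 and Lrrc6.

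Other genes of the same pathway were examined as lists. Of 79 further motile cilia genes 78 were in the table and 60 passed the filter, and none was called for exposure over both sexes, in males or in females, with medians of -0.06, -0.16 and 0.21. The smallest unadjusted p over both sexes was that of Dnai7, an axonemal dynein-associated protein, with a log2 fold change of -0.30 ± 0.09 (adjusted p = 0.415 by edgeR). Saline males 9 to 12 against 1 and 2 gave 3 higher and 10 lower among these 60, where 1724 of all genes were higher and 1477 lower (17.9% in all), led by Tppp3, a tubulin polymerization protein (1.90 ± 0.38), the assembly factor Dnaaf1 (-1.54 ± 0.35), Cfap20 (-0.51 ± 0.12) and the kinase Stk36 (0.72 ± 0.17). Of 15 genes of multiciliogenesis and centriole amplification that passed the filter, none was called for exposure, and Sass6, of the centriole cartwheel, was called higher and Myb lower in libraries 9 to 12. Of the 8 ependymal markers outside the cilium none was called for exposure, and Cd24 was lower in libraries 9 to 12. Among 24 genes of the non-motile primary cilium and intraflagellar transport, 1 was called for exposure, the transport subunit Ift140, with a log2 fold change of 0.51 ± 0.07 over both sexes (adjusted p = 0.00541 by edgeR), and it was called in males as well. None of the 7 choroid plexus genes and 8 markers of neuroblasts and dividing cells that passed the filter was called for exposure, nor were any of 8 astrocyte, 8 myelin, 8 striatal, 8 central amygdala, 3 glutamatergic, and 3 thalamic and hypothalamic markers.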

How the data were processed

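Gene-level read counts were deposited by the authors as 1 table of whole numbers for 16 libraries, with no normalization. The submitters' processing notes name the tools STAR, HTSeq, Trimmomatic and DESeq2 and the genome build rn7. Tool versions, annotation and strand setting were not given in the sources used here. Per the labels' protocols, RNA was taken with Trizol and poly(A) RNA was selected. The 40 genes, 12 other lists and tests were chosen with earlier results of these data known.

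The count table was tested with edgeR 4.0.16 under R 4.3.3 (filterByExpr by 4 groups, TMM factors, robust quasi-likelihood F tests, Benjamini-Hochberg adjustment over 17856 genes, threshold 0.05). Sex was a term in the fit that pooled males and females; other comparisons were contrasts of group means. SE was obtained as the log2 fold change over the root of its F statistic. No pair of libraries agreed within sampling noise (smallest chi-square per gene 4.08). Of 204 list entries, 5 matched by an older symbol and 1 was not found. Values per sample are given for genes past the threshold and, by role, for the smallest p and the highest CPM; Drc1, Rsph4a and the other genes high in saline male replicate 3 were chosen after their values were seen. The steps were tested on simulated data. Alternatives were RLE factors, no filter, DESeq2 1.42.0, limma 3.58.1 voom with sample quality weights, the replicate number as a block, no sex term, 1 sex alone, library-number sets and each library left out.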

Additional observations from a re-analysis of the deposited data

Results flagged for a closer look

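In the 2 groups of 6 libraries, 60 pairs of gene and group were examined for a library far from the other 5, and 5 stood out, all high. Chance marks about 1 in 20 groups where values follow a normal distribution, which CPM of low counts need not do. In fentanyl male replicate 2, Zmynd10 was at 35.2 CPM when the other fentanyl males were at 11.7 to 15.0 CPM, and Foxj1 was at 4.38 CPM when the others were at 2.92 to 3.36 CPM. In fentanyl male replicate 1, Rsph9 was at 5.49 CPM when the others were at 2.30 to 3.29 CPM. In saline male replicate 3, Drc1 was at 13.1 CPM when the other saline males were at 1.497 to 2.99 CPM, and Rsph1 was at 3.77 CPM when the others were at 0.707 to 1.67 CPM.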

How the results depend on the processing

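No motile cilia gene was called for exposure over both sexes, in males, in females or between the sexes with RLE factors, no filter, DESeq2, the replicate block or any of 16 libraries left out. The exceptions were limma voom over both sexes, with 4 genes (5.63% of all genes), and Dnah2 with saline males 9 to 12 left out. Dnah2 was called there in males (5.47% of all genes) and in the difference between the sexes (16.4%). The settings without a call also called few of all genes. Over both sexes the shares were 0.084% with RLE factors, 0.0465% with no filter, 0.488% by DESeq2 and 0.0112% with the replicate block. With 1 library left out they were 0.0506% to 0.163%. Leaving out 1 library moved the median log2 fold change between -0.21 and -0.03 over both sexes, between -0.25 and -0.12 in males and between 0.06 and 0.23 in females. For saline males 9 to 12 against 1 and 2, limma voom called 8 genes (31.9% of all genes), and leaving out 1 library gave 0 to 5 (1.09% to 23.7% of all genes).

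The replicate numbers were not treated as pairs: the labels tie them to no shared animal, litter or batch, and same-numbered libraries correlated at -0.172 to 0.209, over 0.1 in 2 of 8 pairs (the 2 female values are the same by construction). Library numbers are shared across exposure by males 1 and 2 alone within a sex. With the replicate block the median over both sexes was -0.09, and with the numbers of the saline females crossed, chosen after seeing the data, it was -0.10 with no call.

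Over both sexes some directions turned. Dnah2 (-0.10) was 0.15 by limma voom, 0.0296 with the replicate block, 0.0398 with it crossed, 0.38 without saline males 1 and 2, and -0.24 to 0.0909 with 1 library left out. Ccdc39 (-0.01) was 0.11, 0.0101, 0.01, 0.15 and -0.0632 to 0.0619 in those settings. Hydin was -0.18 without saline males 9 to 12, Rsph9 (-0.30) 0.0323 by limma voom, and Drc1 (-0.46) 0.20 without saline male replicate 3. The causes were not tested. Depth limits the low genes: Rsph4a, Dnah6, Gmnc, Dynlrb2 and Tekt2 have under 30 counts in every library.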
